A study of Oryza sativa Indica Group with 18 samples.

Results

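Transcripts of 4 small heat shock genes whose products go to different organelles of the rice cell were followed through a heat treatment: HSP26.7 (plastid), HSP24.1 (mitochondrion), HSP23.2 (endoplasmic reticulum) and HSP16.0 (peroxisome). The members were taken by these names from the array annotation, where they are synonyms of locus numbers, and each had 1 probe set and shared it with no other annotated gene. They are 4 of 17905 genes that at least 1 probe set measures alone. The study exposed seedlings of 2 indica cultivars, Annapurna and IR64, that were 7 days old and grown in hydroponic medium, and hybridised RNA of whole seedlings to 18 Affymetrix rice arrays. There are 6 groups, and the labels call the 3 arrays of each biological replicates. In each cultivar the groups were a control kept at 28 °C for 3 h, seedlings given 1 h of 37 °C, and seedlings given 1 h of 37 °C followed by 2 h of 42 °C, named 42 °C in what follows. The series title sets heat tolerance against susceptibility without assigning either to a cultivar. The 37 °C seedlings were taken after 1 h and the other groups after 3 h, so temperature and elapsed time cannot be told apart in comparisons with the 37 °C group.

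Small heat shock proteins carry a conserved alpha-crystallin domain, assemble into oligomers and hold unfolding proteins in a state from which ATP-dependent chaperones can refold them. Plants have separate forms for the cytosol and for organelles, made from nuclear genes and sorted by targeting signals. Their genes are controlled by heat stress transcription factors, and the plastid form has been linked in other plants to the protection of photosynthesis in heat.

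Values are linear intensities per probe set as deposited, and group values are mean ± SD over 3 arrays. Differences are log2 values ± SE from a limma fit over all 18 arrays, computed after adding 16 to each intensity, and p-values are Benjamini-Hochberg adjusted over 57258 probe sets. A gene is said to be called, and to have risen or fallen or to be higher or lower, where the adjusted p was under 0.05 and the change at least 2-fold. Intensities of different probe sets are not comparable with each other, so genes are compared only by their changes. For a single gene, an exact two-sided permutation of 3 arrays against 3 has a smallest p of 0.1. Arrays that do not overlap between groups reach no further than that, so non-overlap only describes the values. The share of all genes without overlap was not counted. In RNA of whole seedlings, a change in the share of cells that express a gene and a change per cell cannot be told apart.

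Array medians ran from 7.57 to 8.19, and 34.2 to 35.3% of probe sets read over 50. The summed intensity of 4 green tissue markers was 60297 to 88826 and that of 3 root markers 16235 to 23831 over the 18 arrays. CAB2R carried most of the green sum and HAK5 most of the root sum, and other markers changed: at 42 °C against control PORA rose by log2 2.42 in Annapurna and 2.79 in IR64, and Lsi1 by 2.26 and 3.08. The summed intensity of 4 markers of germinating grain (AMY1.1, AMY1.3, EP3A and GLB1) was 804 to 3257 over all Annapurna arrays; in IR64 it was 526 to 4090 in the controls, 1819 to 1973 at 37 °C and 11648 to 13241 at 42 °C. The high sum came from AMY1.1, an alpha-amylase gene, which read 5.47 to 5.49 at 42 °C in Annapurna and 8767 to 10078 at 42 °C in IR64, and 3532 on IR64 control replicate 3. The other grain markers peaked elsewhere or were alike in the cultivars at 42 °C. AMY1.3 was highest at 37 °C in IR64 (652 to 697) and EP3A on IR64 control replicate 3 (102). At 42 °C AMY1.3 read 86.2 to 97.2 in IR64 and 6.53 to 8.91 in Annapurna. EP3A read 41.5 to 52.3 there in IR64 and 5.90 to 6.28 in Annapurna. GLB1 read 2931 to 3237 at 42 °C in Annapurna and 2663 to 3025 at 42 °C in IR64. Actin probe sets at the 3' and 5' ends, a check on RNA integrity, differed by log2 4.62 to 6.31, with the top value on an Annapurna control.

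**Figure D1:**
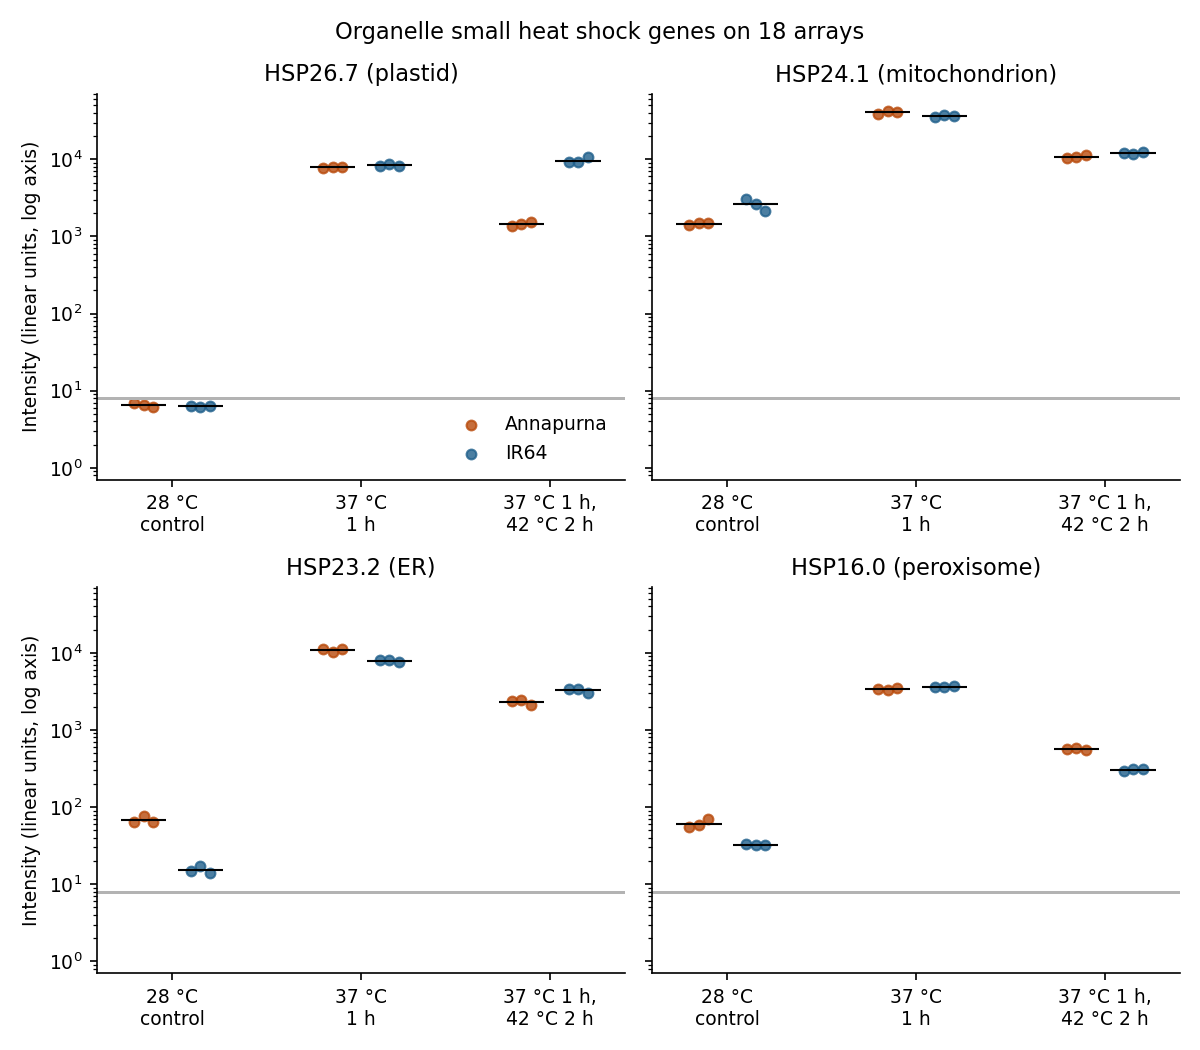
Intensity of each gene (linear units on a log axis) on every array, by step from left to right and with Annapurna left of IR64; points are arrays, black bars group means over 3 arrays, and the grey band is the range of array medians. All 4 genes are high at 37 °C in both cultivars, and HSP26.7 at 42 °C stands at 1377 to 1525 in Annapurna and at 9164 to 10603 in IR64.

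HSP26.7, the gene of the plastid protein, was near background without heat and strongly present at 37 °C in both cultivars, but the cultivars parted at 42 °C. In Annapurna it read 6.93, 6.52 and 6.23 before heat, then 7773, 7958 and 7876 at 37 °C, and 1377, 1455 and 1525 at 42 °C. In IR64 it read 6.26, 6.19 and 6.38 before heat, then 8247, 8629 and 8280 at 37 °C, and 9191, 9164 and 10603 at 42 °C. Every control array read below the median of its array, the 37 °C arrays of the cultivars lay close together, and the 42 °C arrays were far apart. The rise over control at 37 °C was log2 8.45 ± 0.05 in Annapurna (limma adjusted p = 2e-19) and 8.56 ± 0.05 in IR64 (adjusted p = 1.7e-19). These sizes depend on the amount added to dim values, running from 6.81 to 10.02 in Annapurna and from 6.91 to 10.17 in IR64 over the settings tried. With a floor of 50 under the controls, HSP26.7 was at least 157-fold higher at 37 °C in Annapurna and at least 168-fold higher in IR64.

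The step to 42 °C moved HSP26.7 differently in the cultivars. In Annapurna it fell by 2.43 ± 0.05 on the log2 scale against 37 °C (limma adjusted p = 9.7e-14), to 18.5% of the 37 °C mean. In IR64 it stood at 115% of the 37 °C mean, a difference of log2 0.20 ± 0.05 (adjusted p = 0.0028) that is under 2-fold although the 3 arrays at each step do not overlap. The difference between these steps, Annapurna minus IR64, was log2 -2.63 ± 0.07 (adjusted p = 8.1e-12), and it ranked 52 among all genes in that direction. Compared with control at 42 °C, HSP26.7 rose by 6.02 ± 0.05 in Annapurna and by 8.76 ± 0.05 in IR64, sizes that also rest on controls at background. With the floor of 50 it was at least 29.1-fold higher in Annapurna and at least 193-fold higher in IR64.

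Between Annapurna and IR64 HSP26.7 was not called in the controls (log2 0.018 ± 0.049, 95% interval -0.088 to 0.12, both at background) or at 37 °C (-0.091 ± 0.049, interval -0.20 to 0.014). At 42 °C the gene was lower in Annapurna than in IR64, 1453 ± 74.3 against 9653 ± 823, by log2 -2.72 ± 0.05 (limma adjusted p = 1.3e-14). The IR64 42 °C arrays are also those with the highest AMY1.1. Of the 4 grain markers, 3 were called lower in Annapurna than in IR64 at 42 °C, beside 3.07% of all genes. They were AMY1.1, AMY1.3 (log2 -2.185 ± 0.07) and EP3A (-1.50 ± 0.42), and GLB1 was not called (0.15 ± 0.08). The part of grain RNA in this result was not tested. On IR64 control replicate 3, the unheated array with the highest AMY1.1, HSP26.7 read 6.38, at background like all unheated arrays. That array was not heated, so it cannot show what grain RNA holds at 42 °C.

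HSP24.1, of the mitochondrial protein, was already well above background without heat and rose in both cultivars by less than the other members at 37 °C. In Annapurna it read 1403, 1499 and 1475 before heat, then 39261, 42251 and 41464 at 37 °C, and 10318, 10617 and 11345 at 42 °C. In IR64 it read 3035, 2605 and 2164 before heat, then 35514, 37414 and 36986 at 37 °C, and 11948, 11666 and 12342 at 42 °C. The steps do not overlap in either cultivar, and the IR64 controls had the widest spread relative to their mean (CV 16.7%). The highest intensity of any probe set on an array was 54159 to 85057, and whether the 37 °C signal of HSP24.1 was compressed near the top of the scale was not tested.

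At 37 °C HSP24.1 rose by log2 4.80 ± 0.09 in Annapurna (28.1-fold in mean intensity) and by 3.82 ± 0.09 in IR64 (14.1-fold), with limma adjusted p = 1.7e-14 and 2.4e-13. At 42 °C it was still higher than in control, by 2.87 ± 0.09 in Annapurna and 2.21 ± 0.09 in IR64. Between 37 and 42 °C on the log2 scale it fell by 1.93 ± 0.09 in Annapurna and fell by 1.61 ± 0.09 in IR64, to 26.2% and 32.7% of the 37 °C means.

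The cultivars differed in HSP24.1 mainly before heat, and by less than 2-fold: the control mean was 1459 ± 49.6 in Annapurna and 2601 ± 436 in IR64 (log2 -0.81 ± 0.09, limma adjusted p = 4.3e-06). Their arrays overlapped at neither heat step, yet the differences were small, 0.16 ± 0.09 at 37 °C (95% interval -0.023 to 0.35) and -0.16 ± 0.09 at 42 °C (interval -0.34 to 0.029). The response at 37 °C, Annapurna minus IR64, was 0.98 ± 0.12 (adjusted p = 1.1e-04), just under the 2-fold threshold. It passed that threshold without IR64 control replicate 3 (1.1) or without Annapurna 37 °C replicate 1 (1.01).

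HSP23.2, of the endoplasmic reticulum protein, was the member called between the cultivars before heat, where HSP24.1 and HSP16.0 differed by less than 2-fold. In Annapurna it read 64.8, 77.3 and 64.8 before heat, then 11181, 10200 and 11199 at 37 °C, and 2339, 2410 and 2077 at 42 °C. In IR64 it read 15.02, 17.2 and 13.8 before heat, then 7974, 8087 and 7710 at 37 °C, and 3439, 3406 and 3005 at 42 °C. Every Annapurna array read above every IR64 array in the controls and at 37 °C, and below every IR64 array at 42 °C.

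The control difference in HSP23.2, Annapurna minus IR64, was log2 1.44 ± 0.07 (limma adjusted p = 2.3e-09), with mean intensities of 69.0 ± 7.20 and 15.4 ± 1.73. It was 0.74 with 64 added in place of 16, and 0.46 with values under 50 set to 50, so the call rests on dim IR64 values. At 37 °C the difference was 0.45 ± 0.07 (adjusted p = 3e-04) and at 42 °C -0.53 ± 0.07 (adjusted p = 7.9e-05), both under 2-fold.

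Heat raised HSP23.2 at 37 °C by log2 7.00 ± 0.07 in Annapurna and 7.98 ± 0.07 in IR64 (limma adjusted p = 5.8e-17 and 1.2e-17). At 42 °C it was higher than in control by 4.75 ± 0.07 in Annapurna and 6.72 ± 0.07 in IR64, and the difference of these responses was -1.96 ± 0.10 (adjusted p = 1.6e-08). Under the floor of 50 that difference was -0.99 and no longer called. From 37 to 42 °C on the log2 scale the gene fell by 2.25 ± 0.07 in Annapurna and fell by 1.27 ± 0.07 in IR64, to 21.0% and 41.4% of the 37 °C means.

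For HSP23.2 the differences of responses at 37 °C against control and at 42 °C against 37 °C were both log2 -0.98 ± 0.10 (limma adjusted p = 2.4e-05 and 1.2e-05), which is at the threshold. The difference at 37 °C against control was called, at -1.03 to -1.0, without Annapurna control replicate 1 or 3, IR64 control replicate 2, Annapurna 37 °C replicate 1 or 3, or IR64 37 °C replicate 3. It also depends on dim control values, running from -1.64 to -0.0051 over the amounts added and the floor tried. The difference at 42 °C against 37 °C was called, at -1.04 to -1.0, without Annapurna 37 °C replicate 2, Annapurna 42 °C replicate 1 or 2, or IR64 42 °C replicate 3. The second of these does not involve dim values: the lowest of its arrays read 2077.

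HSP16.0, of the peroxisomal protein, was high at 37 °C in both cultivars and kept the smallest share of that level at 42 °C among the members in each. In Annapurna it read 55.4, 58.7 and 69.6 before heat, then 3428, 3327 and 3456 at 37 °C, and 567, 575 and 550 at 42 °C. In IR64 it read 32.8, 32.5 and 32.6 before heat, then 3607, 3585 and 3713 at 37 °C, and 297, 309 and 316 at 42 °C. The Annapurna arrays all lay above the IR64 arrays before heat and at 42 °C, and all below them after 1 h of 37 °C.

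The rise of HSP16.0 at 37 °C was log2 5.47 ± 0.05 in Annapurna and 6.23 ± 0.05 in IR64 (limma adjusted p = 1.8e-17 and 4.3e-18). At 42 °C it stood above control by 2.91 ± 0.05 in Annapurna and 2.73 ± 0.05 in IR64. From 37 to 42 °C on the log2 scale it fell by 2.56 ± 0.05 in Annapurna, to 16.6% of the 37 °C mean, and fell by 3.50 ± 0.05 in IR64, to 8.45%. In IR64 that drop ranked 15 among the falls of all genes and 2 among those of 19 small heat shock genes.

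No cultivar difference in HSP16.0 reached 2-fold. Annapurna minus IR64 was log2 0.66 ± 0.05 in the controls (limma adjusted p = 1.8e-07), -0.095 ± 0.051 at 37 °C (95% interval -0.20 to 0.015) and 0.84 ± 0.05 at 42 °C (adjusted p = 1.3e-08). At 42 °C the means were 564 ± 12.9 in Annapurna and 307 ± 9.48 in IR64. The difference between the cultivars in the step from 37 to 42 °C was 0.94 ± 0.07 (adjusted p = 5.2e-07), opposite in sign to that of the other members, and it was called only after quantile normalization (1.03).

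**Figure D2:**
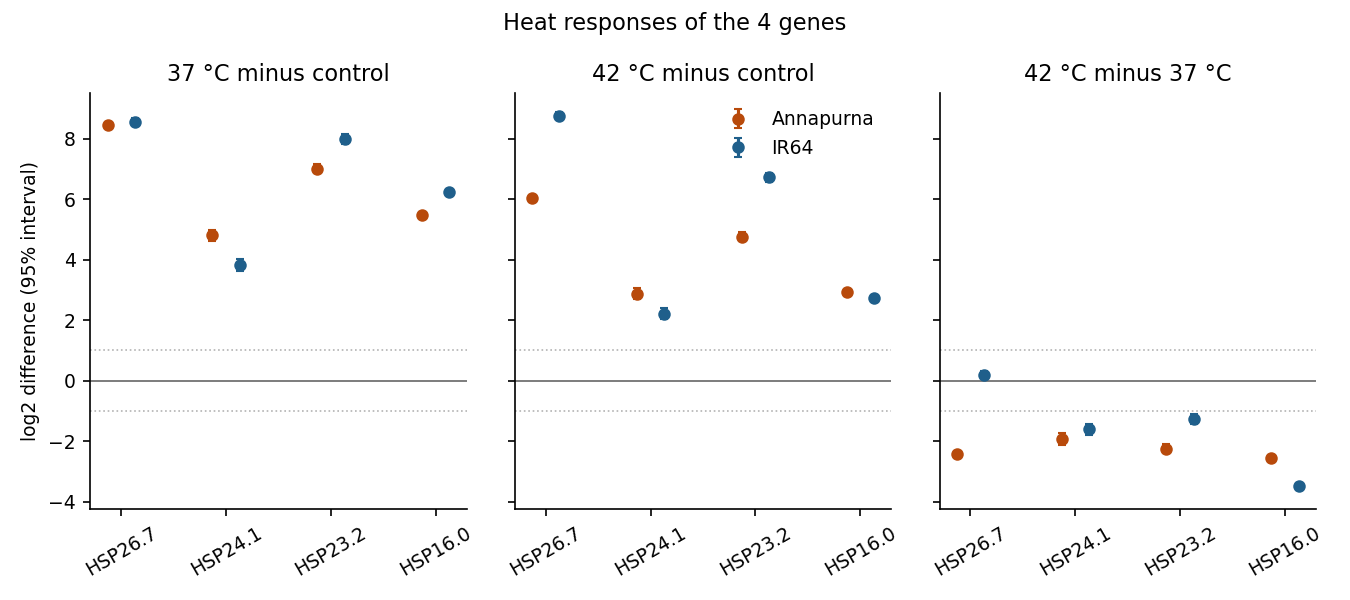
Log2 difference of each gene between steps (vertical axis, 95% interval from limma), with Annapurna left of IR64 for each gene; dotted lines mark the 2-fold threshold. In the right panel HSP26.7 in IR64 is the only point inside the dotted lines, at 0.20.

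Counted together, the 4 genes rose at 37 °C in Annapurna, 4 of 4, where 5.57% of all genes were called higher, and in IR64, 4 of 4 against 5.15%. At 42 °C against control all 4 were higher in Annapurna (3.38% of all genes) and all 4 in IR64 (6.45%). Between 37 and 42 °C, 4 of 4 fell in Annapurna, against 6.38% of all genes, and 3 of 4 in IR64, against 3.9%, with HSP26.7 the exception. The median difference of the members for that step was log2 -2.34 in Annapurna and -1.44 in IR64, beside 0.0093 and 0.053 over all genes. These counts share arrays: the 37 °C group enters 2 of the comparisons in each cultivar, as do the controls.

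Between the cultivars 1 of the 4 was called in the controls (HSP23.2, higher in Annapurna; 3.89% of all genes were called higher), 0 at 37 °C (5.4% called in either direction) and 1 at 42 °C (HSP26.7, lower in Annapurna; 3.07% called lower). At 37 °C the limma adjusted p was 0.13 for HSP26.7, HSP24.1 and HSP16.0, and 3e-04 for HSP23.2 at under 2-fold. Of the differences of responses, 0 of 4 were called for 37 °C against control (2.83% of all genes), where 3 of the 4 had an adjusted p under 0.05 without reaching 2-fold. For 42 °C against control 2 were called, HSP26.7 and HSP23.2 (3.65% called lower), and for 42 °C against 37 °C 1 was called, HSP26.7 (3.28% called lower).

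**Figure D3:**
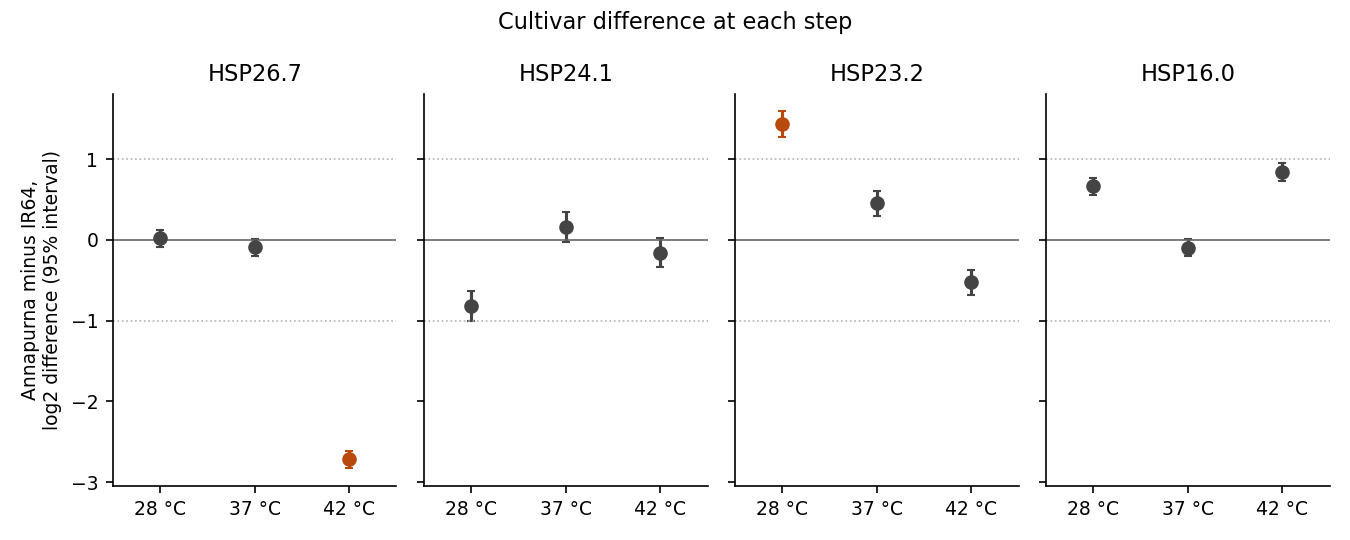
Annapurna minus IR64 (log2 difference with 95% interval, limma) at each step for the 4 genes; orange points are called and dotted lines mark 2-fold. HSP26.7 lies at -2.72 at 42 °C and HSP23.2 at 1.44 in the controls, and at 37 °C all 4 lie within the dotted lines.

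The 4 genes kept different shares of their 37 °C level at 42 °C. In Annapurna the shares were 18.5 ± 0.94% for HSP26.7, 26.2 ± 1.29% for HSP24.1, 21.0 ± 1.62% for HSP23.2 and 16.6 ± 0.38% for HSP16.0 (SD over the 42 °C arrays). In IR64 they were 115 ± 9.82%, 32.7 ± 0.93%, 41.4 ± 3.05% and 8.45 ± 0.26% in the same order of genes. Of the 15 other small heat shock genes on the array, 14 had a lower mean at 42 °C than at 37 °C in Annapurna and 10 in IR64. Their median shares were 17.6% and 29.9%. The 15 were taken by name, whatever their compartment.

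**Figure D4:**
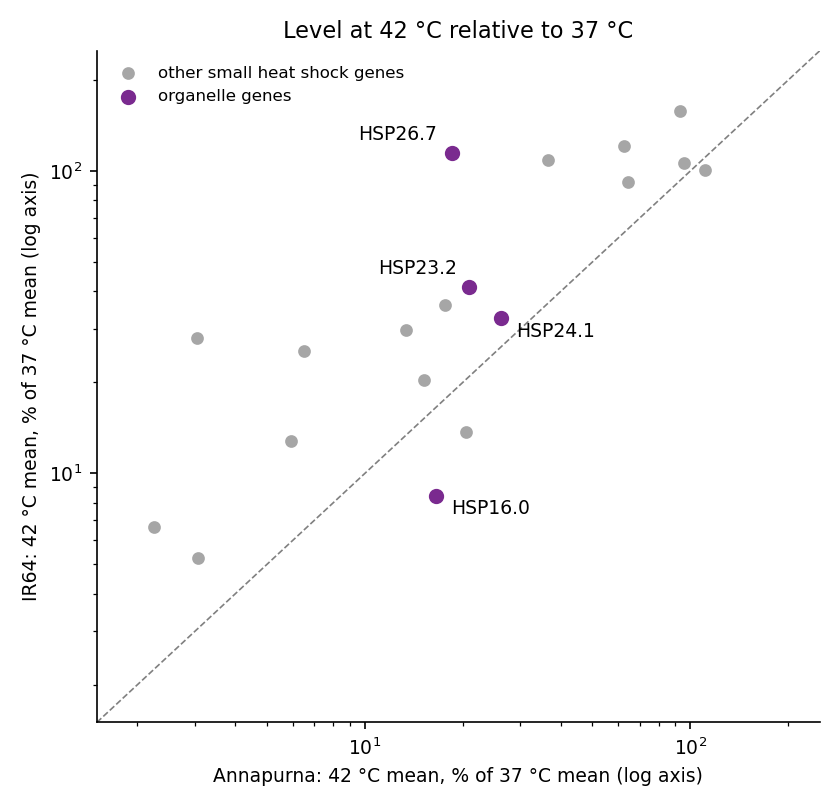
Mean intensity at 42 °C as a percentage of the 37 °C mean in Annapurna (horizontal) and IR64 (vertical), both log axes, for the 4 organelle genes and 15 other small heat shock genes; the dashed line marks equal shares. HSP26.7 lies above the line at 18.5 and 115%, and HSP16.0 below it at 16.6 and 8.45%. Shares near 100% include genes not called at 37 °C.

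Among those 15 genes, 13 rose and 0 fell in Annapurna at 37 °C and 12 rose and 0 fell in IR64. The medians were log2 4.42 and 4.56, and 5.57% and 5.15% of all genes were called higher. From 37 to 42 °C, 9 fell and 0 rose in each cultivar, beside 6.38% of all genes lower in Annapurna and 3.9% in IR64. The step differed between the cultivars (Annapurna minus IR64) in 6 of the 15, all lower in Annapurna, beside 3.28% of all genes. HSP26.7 ranked 2 among all 19 genes in that direction, after HSP16.9B, a cytosolic form. In IR64, 5 of the 15 had a mean at 42 °C at or above that at 37 °C, as HSP26.7 had. Of these, HSP17.9B, HSP22.3 and HSP18.8 were not called at 37 °C in IR64 (log2 0.98, 0.57 and 0.25 against control). HSP16.6 rose there by 1.93 and HSP16.9A, a cytosolic form, by 5.72. HSP16.9A kept the highest share, at 92.7% in Annapurna and 158% in IR64.

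Heat stress factors bind the promoters of heat shock genes. Of 20, 6 rose and 1 fell in Annapurna at 37 °C, and 7 rose and 1 fell in IR64, where 5.57% and 5.15% of all genes rose. At 42 °C against control 0 were higher and 4 lower in Annapurna, and 2 higher and 3 lower in IR64. Of 17905 genes, 605 were higher and 982 lower in Annapurna, and 1155 higher and 909 lower in IR64. The higher factors in IR64 were HSFA2C (1.86 ± 0.16) and HSFC1B (1.38 ± 0.10). HSFA2A, the factor with the largest rise (log2 7.05 ± 0.09 in Annapurna and 7.30 ± 0.09 in IR64), stood at -0.62 ± 0.09 and 0.38 ± 0.09 against control at 42 °C, neither called. All 4 organelle genes were called higher than control on those arrays. So were 9 of the 15 other small heat shock genes in Annapurna and 11 in IR64, beside 3.38% and 6.45% of all genes.

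Other protein quality control genes were listed by name for each compartment. The list for the plastid took all Clp and FtsH names given, and the FtsH family also has mitochondrial members, so it is not purely plastid. Of its 15 genes, 4 rose and 1 fell in Annapurna at 37 °C, and 3 rose and 0 fell in IR64. Over all genes 5.57% and 5.15% rose. CLPB-C, a plastid disaggregase, rose by log2 1.97 ± 0.06 in Annapurna and 1.67 ± 0.06 in IR64. The protease gene FTSH6 rose by 3.70 ± 0.10 in Annapurna and stood at 0.845 ± 0.095, not called, in IR64. At 42 °C 0 of 15 were higher and 2 lower than control in Annapurna, and 1 was higher and 1 lower in IR64. Over all genes 3.38% and 6.45% were called higher, so the counts of higher genes are near the background. Called lower over all genes were 982 of 17905 in Annapurna and 909 in IR64.

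The names listed for the mitochondrion matched only CLPB-M, a disaggregase gene that also carries the name CLPB3 and is counted in the plastid list too. It rose at 37 °C by log2 3.73 ± 0.10 in Annapurna and 3.86 ± 0.10 in IR64. At 42 °C it stood at -0.92 ± 0.10 and -0.20 ± 0.10 against control, not called, while HSP24.1 was higher than control in both cultivars.

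In the endoplasmic reticulum list 9 of 21 rose and 0 fell at 37 °C in Annapurna, and 8 rose and 0 fell in IR64. Over all genes 5.57% and 5.15% rose. DJC27, a DnaJ co-chaperone, rose by log2 3.56 ± 0.06 in Annapurna and 4.16 ± 0.06 in IR64, and OsPDIL2-3, a protein disulfide isomerase, by 3.36 ± 0.06 and 3.32 ± 0.06. At 42 °C 3 of 21 were higher than control in Annapurna and 2 in IR64, beside 3.38% and 6.45% of all genes. The IR64 count is near the background. OsPDIL2-3 was among the higher genes in both cultivars, at 1.82 ± 0.06 and 1.47 ± 0.06, whereas DJC27 was at 0.026 ± 0.058 and 0.40 ± 0.06, not called.

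Of 11 other peroxisomal genes, 2 rose in Annapurna and 1 in IR64 at 37 °C, and 4 and 6 were higher than control at 42 °C, with 0 lower in any of these comparisons. Over all genes 5.57% and 5.15% rose at 37 °C and 3.38% and 6.45% were higher at 42 °C, so 1 of 11 is near the background. At 42 °C the catalase gene CAT-A rose by log2 1.39 ± 0.05 in Annapurna and 1.1 ± 0.05 in IR64. In IR64 the largest rises were those of MS (2.32 ± 0.07), taken by its symbol as malate synthase, and ICL (1.59 ± 0.11), isocitrate lyase. Both are enzymes of fat use in germinating seeds, and these arrays had the highest AMY1.1. At 37 °C MS rose by 1.53 ± 0.07 in Annapurna and 1.47 ± 0.07 in IR64. ICL rose there by 1.52 ± 0.11 in Annapurna and stood at 0.21 ± 0.11, not called, in IR64. On the 37 °C arrays AMY1.1 read 5.41 to 5.65. The part of grain RNA in these rises was not tested.

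Likeness of patterns over the 6 groups was measured as the root mean square distance between group means of log2 intensity, each gene centred on its own mean, over 2456 named genes. Closest to HSP26.7 were HSP18.0 (0.91) and HSP23.2 (1.03), and closest to HSP23.2 were HSP18.0 (0.65) and HSP26.7 (1.03). HSP16.0 was closest to HSP17.4 (0.47) and HSP17.7 (0.67), cytosolic forms, and among its nearest 5 were CLPB1, the cytosolic HSP101 (0.82), and HSP24.1 (0.85). The gene closest to HSP24.1 was OsPDIL2-3 (0.49), whose probe set carries a suffix for possible cross-hybridisation, followed by HSP21.9 (0.65) and cap2 (0.71). HSP26.7 was thus further from its nearest gene than the other members were from theirs, and its distance to HSP24.1, at 2.29, was the largest between members. Profiles were centred but not scaled, so distances also grow with the size of a gene's changes. HSP26.7 ran from -5.31 to 3.45 around its mean, with controls at background.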

How the data were processed

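The authors deposited 1 table of linear intensity values per probe set, 1 column per array. GCOS is the tool in the submitters' processing notes; no label or header names the summary and scaling method. Per the labels' protocols, 500 ng of total RNA was labelled with biotin from the 3' end. Of 57381 probe sets, 123 controls were left out. Array medians lay within 0.037 log2 after adding 16, and nothing further was normalized. These medians, 7.57 to 8.19, are dim values and do not show how bright probe sets compare between arrays. Values were log2(intensity + 16), fitted with limma 3.58.1 in R 4.3.3 (6 group means, 12 residual degrees of freedom, variance trend) and tested in 12 two-sided comparisons at adjusted p under 0.05 and 2-fold; the fit was tested on simulated data. Python 3.11.15, pandas 2.3.3, numpy 2.4.6 and matplotlib 3.10.9 served annotation and figures. Gene names came from the array annotation through the RefSeq gene table: 22436 probe sets had 1 gene, 95 several and 34727 none. Genes with several probe sets were represented by the one with the highest mean. The probe sets of HSFA2A, FTSH6, CAT-A and HSP18.8 carry the same suffix for possible cross-hybridisation as that of OsPDIL2-3. HSFA2A, FTSH6 and CAT-A have further probe sets, whose values are not given. The members are reported whatever their result, up to 3 called genes each way were named from each list, and the 5 genes nearest in pattern to each member were listed. Members and lists were chosen with earlier results of these data known. The labels call replicates biological without naming separate cultures, so p-values measure the spread between these samples. No promoter or protein sequence was used here. The number of arrays limits precision.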

Additional observations from a re-analysis of the deposited data

Results flagged for a closer look

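Results whose response to heat differed between the cultivars by a direct test of that difference (limma interaction contrast, called at adjusted p under 0.05 and 2-fold) are collected here. For HSP26.7 the response at 42 °C against control was log2 -2.73 ± 0.07 in Annapurna minus IR64 (adjusted p = 1.2e-11), and that at 42 °C against 37 °C was -2.63 ± 0.07 (adjusted p = 8.1e-12). For HSP23.2 the response at 42 °C against control was -1.96 ± 0.10 (adjusted p = 1.6e-08). At 42 °C itself, Annapurna minus IR64 was -2.72 ± 0.05 for HSP26.7 and called, and -0.53 ± 0.07 for HSP23.2 and under 2-fold. The HSP23.2 result also holds the control difference of 1.44 ± 0.07, whose call rests on dim IR64 values. Other small heat shock genes had differences in the same direction. In the response at 42 °C against control 6 of the 15 were called lower and 0 higher, beside 3.65% of all genes lower. The largest was that of HSP18.1 (-5.71 ± 0.19). At 42 °C itself 4 of the 15 were lower in Annapurna and 1 higher, beside 3.07% of all genes lower.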

How the results depend on the processing

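Each of the 48 member differences was recomputed under 9 further settings and 18 fits that left out 1 array each, and 41 kept their direction and side of the threshold throughout, all heat responses within a cultivar among them. HSP23.2 between the controls lost its call with 64 added (0.74) and with values under 50 set to 50 (0.46), leaving 0 members called there; by construction both shrink differences of dim values. The HSP23.2 response difference at 42 °C against control was -0.99 under that floor, leaving 1 member called. At 37 °C against control, the HSP23.2 response difference was -1.64 with 1 added, which made 1 member called. Over the amounts added and the floor it ran from -1.64 to -0.0051, so its size rests on dim control values. The HSP16.0 response difference at 42 °C against control (0.18, not called) reversed with 1 added, at -0.0057. The HSP16.0 response difference at 42 °C against 37 °C reached 1.03 after quantile normalization, making 2 members called; the cause was not tested. Leaving out 1 array gave response differences of 0.86 to 1.1 for HSP24.1 and -1.03 to -0.91 for HSP23.2 at 37 °C against control (0 to 2 members called), and -1.04 to -0.92 for HSP23.2 at 42 °C against 37 °C (1 to 2 called). Leaving out replicate 3 of both controls, chosen after seeing AMY1.1 on them, gave 1.11 for HSP24.1 at 37 °C against control and 1 member called. Same-numbered arrays did not deviate together (median correlation 0.0042 over 45 pairs), and with a replicate block no call on a member changed, the HSP26.7 step from 37 to 42 °C staying at -2.63 between cultivars. Each member had 1 probe set, so no other probe set could be tried. Dim control signals limit the size of the fold changes of HSP26.7, HSP23.2 and HSP16.0.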
